A study of Mus musculus with 8 samples.

Results

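The genes described here are 10 genes known from basophils and mast cells, read from a table of 23356 genes by their symbols. They encode granule proteases (*Prss34*, *Mcpt8*, *Cpa3* and *Gzmb*), chains of the high-affinity IgE receptor (*Fcer1a* and *Ms4a2*), the enzyme that makes histamine (*Hdc*), the cytokine IL-4 (*Il4*), the transcription factor GATA2 (*Gata2*) and a surface receptor of the CD200 receptor family (*Cd200r3*). The cells were bone marrow-derived dendritic cells (BMDCs), grown from mouse marrow for 6 days with GM-CSF and IL-4, each at 10 ng/ml. They came from wild-type (WT) mice or from GEF-H1-/- mice (*Arhgef2*-/-), both on a C57BL/6 background (C57BL/6N in the methods), and each genotype was left as control or treated with ansamitocin-P3 (100 nM, 5 h), a maytansine derivative that destabilizes microtubules. GEF-H1 is a guanine nucleotide exchange factor for RhoA that is held on microtubules and released when they come apart, and the comparisons ask what the drug does in DCs with and without it.

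RNA-seq was made on 8 libraries, 2 for each of the 4 groups, but the deposited table holds 1 value per gene and group. That value is in FPKM, the fragments of a transcript per kilobase of its length, scaled to the number of fragments sequenced, so that levels of different genes can be set side by side per length. With 1 value per group there is no SD, no n and no p-value, and the errors given are the 95% confidence intervals of Cuffdiff that stand in the table. The methods describe sex-matched young adult mice of both sexes, without the age or sex behind each sample, and nothing says whether the duplicates came from separate mice or cultures. The knockout was carried by the whole mouse, and the methods do not state that the WT mice were littermates. All floating and loosely attached cells were collected without a sort, so that the culture may hold other cells of the marrow. In such bulk RNA, fewer cells of a type and less RNA per cell cannot be told apart.

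Basophils and mast cells are granulocytes that carry IgE on the receptor FcεRI, made of an alpha chain that binds IgE, a beta chain that amplifies the signal and a gamma chain shared with other Fc receptors. When antigen crosslinks this IgE, the cells release histamine and granule proteases, and basophils in mice are a known early source of IL-4. Both cell types depend on GATA2 during their development. Mouse basophils carry the protease genes *Prss34* and *Mcpt8*, whereas tissue mast cells carry other chymases and tryptases and much of the stem cell factor receptor Kit. Cultures of marrow in GM-CSF and IL-4 are used to grow DCs and contain other myeloid cells as well.

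GATA factors bind short motifs with the core GATA, and *Gata2* is itself among the 10 genes, so the stretch before each gene's start was read for such letters. The letters AGATAA were searched, and likewise the letters AGATAG, the letters TGATAA and the letters TGATAG, on both strands in the 250 bases before each start in the RefSeq promoter sequences of GRCm38.p6. At least 1 match stood before a start of 7 of the 10 genes, beside 29.7% of all 27025 gene symbols counted in the same way and 26.5% of the 32851 single promoters. *Ms4a2* and *Cd200r3* had 3 matches each, and in *Cd200r3* a pair of them lie next to each other. No match was found in these windows of *Mcpt8*, *Gata2* or *Gzmb*. Shown are the match 37 bases before the start of *Ms4a2*, the match 39 bases before that of *Cd200r3* and the single match of each other gene, so that their place and neighbouring letters can be compared. Each sequence has 30 bases, runs 5′ to 3′ on the strand of its gene and has the motif, or its reverse complement TTATCT, in capitals.

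Prss34, chr17:25298351-25298380, plus strand: cctgtggaagaaAGATAAatgggaccctgg
Cpa3, chr3:20242210-20242239, minus strand: agctgttcgtcgAGATAAaagctgaggtat
Ms4a2, chr19:11623739-11623768, minus strand: cagcctggagacTTATCTgacaagtaggtt
Fcer1a, chr1:173227304-173227333, minus strand: acaaccctattaTTATCTctggagaaagcc
Hdc, chr2:126618882-126618911, minus strand: caggggcagggaTGATAGagggctctttta
Cd200r3, chr16:44943627-44943656, plus strand: gactggagatgaAGATAAagatagaggaat
Il4, chr11:53617401-53617430, minus strand: gatgtgacaggcTGATAGtgcattttctct

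The first base of the motif lay 31 bases before the start of *Prss34*, 46 before *Cpa3*, 92 before *Fcer1a*, 80 before *Il4* and 221 before *Hdc*. RefSeq gives *Il4* 2 starts, and its match lies before the inner one, within the span that the table gives the gene. These matches describe letters and do not show that a factor binds there.

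All 10 genes were detected in every group, from a lowest level of 1.28 FPKM for *Il4* in WT control DCs, and all passed the filter (1 FPKM or more in any group), which left 11397 genes for comparison. In WT control DCs *Prss34*, *Mcpt8* and *Gzmb* stood highest per length, and neighbours in this order had overlapping intervals. *Cpa3* followed below *Gzmb* with intervals apart. *Hdc*, *Gata2*, *Cd200r3*, *Fcer1a* and *Ms4a2* lay close together between 5.97 and 8.70 FPKM, with each overlapping the next, and *Il4* came last. In GEF-H1-/- control DCs the order was *Prss34*, *Mcpt8*, *Cpa3* and *Fcer1a*, each apart from the next, and *Fcer1a* had moved from the eighth place to the fourth. The plot of levels by group shows this order and the intervals.

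**Figure D1:**
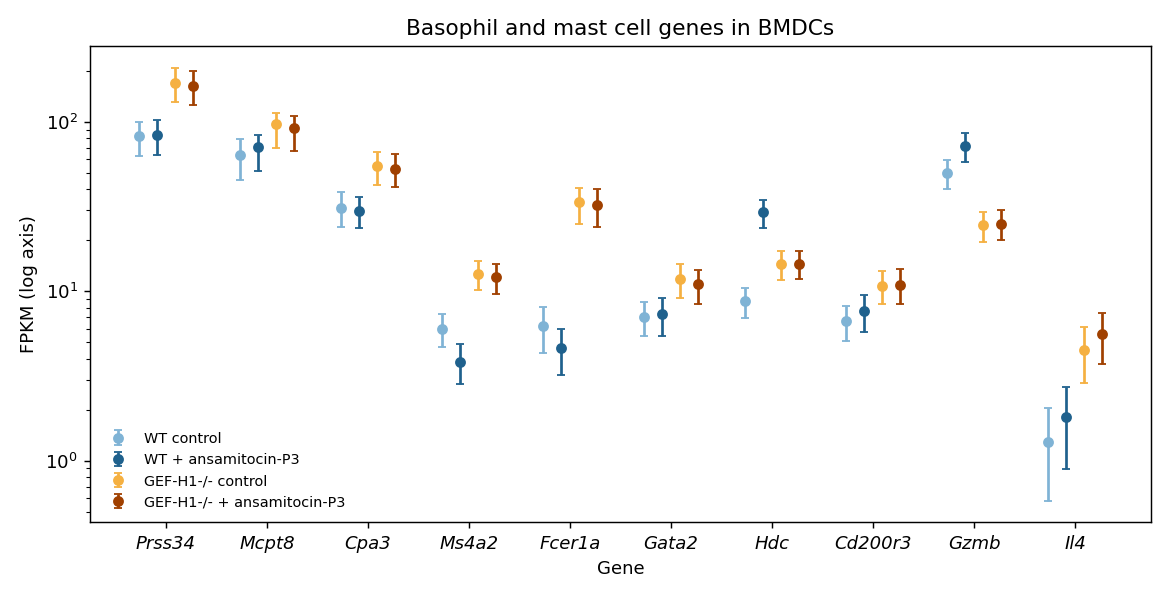
FPKM of the 10 genes on a log axis in WT control, WT ansamitocin-P3, GEF-H1-/- control and GEF-H1-/- ansamitocin-P3 BMDCs, with points for the group value and bars for the 95% Cuffdiff interval. Both GEF-H1-/- points lie above both WT points for 8 of the genes, both lie below them for *Gzmb*, and *Hdc* has its highest point, 29.2 FPKM, in treated WT DCs.

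Between the genotypes, 9 of the 10 genes had a higher value in GEF-H1-/- control DCs than in WT control DCs, with *Gzmb* the exception. A difference was called past a limit of 1 or -1 in log2(FPKM + 1), a scale that understates the differences of low genes, and separately where the intervals did not overlap. Past the limit, 3 genes were higher (*Fcer1a*, *Il4* and *Prss34*), against 1.26% of all genes tested, and 0 were lower, against 0.614%. With a pseudocount of 5 in place of 1 FPKM *Il4* was no longer past it (0.59), and with 0.1 FPKM *Ms4a2* (1.07) and *Gzmb* (-1.03) were past it as well. By the intervals, 8 were higher, against 2.86% of all genes, and 1 was lower, against 1.88%, while those of *Mcpt8* overlapped. The median difference of the 10 genes was 0.74 in log2(FPKM + 1), and that of all genes tested was -0.01. Added up, the 10 genes had 263 FPKM in WT control and 435 FPKM in GEF-H1-/- control DCs.

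In ansamitocin-P3-treated cells the genotypes differed in the same direction for the same genes except *Hdc*. There, 3 genes were past the limit upwards (*Fcer1a*, *Ms4a2* and *Il4*), against 2% of all genes, and 1 downwards (*Gzmb*), against 2.06%. With a pseudocount of 5 FPKM *Ms4a2* (0.95) and *Il4* (0.64) were no longer past it, and with 0.1 FPKM *Hdc* (-1.001) was. Intervals were apart upwards for 5 genes, against 7.02% of all genes, and downwards for 2, against 6.73%. The median difference of the 10 genes was 0.67, beside -0.03 for all genes tested. Treated and control cells are separate libraries, but they may come from the same marrow, and the treated comparison is then no independent repeat of the control one.

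The largest genotype difference among the 10 genes was that of the IgE receptor's alpha chain. *Fcer1a* (chr1:173221271-173227229, minus strand) had 6.25 FPKM (4.32 to 8.07) in WT control, 4.62 (3.20 to 5.96) in WT treated, 33.5 (24.9 to 40.7) in GEF-H1-/- control and 32.3 (24.0 to 40.2) in GEF-H1-/- treated DCs. Both GEF-H1-/- groups were far above both WT groups, and their intervals did not meet. The level was 5.36-fold higher without GEF-H1 in control cells and 7.0-fold higher in treated cells, which is a difference of 2.25 (1.74 to 2.77) and 2.57 (2.06 to 3.08) in log2(FPKM + 1). The bounds in parentheses of such differences combine the Cuffdiff intervals of the groups as independent errors.

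*Ms4a2* (chr19:11615521-11623719, minus strand), which encodes the beta chain, had 5.97 FPKM (4.66 to 7.29) in WT control, 3.84 (2.82 to 4.87) in WT treated, 12.7 (10.2 to 15.1) in GEF-H1-/- control and 12.1 (9.64 to 14.5) in GEF-H1-/- treated DCs. Here too the genotypes did not overlap. The level was 2.12-fold higher in GEF-H1-/- control and 3.14-fold higher in GEF-H1-/- treated DCs than in the WT DCs of the same treatment. The drug effect in log2(FPKM + 1) was -0.53 (-0.94 to -0.11) in WT DCs, where the intervals of the groups overlapped, and -0.06 in GEF-H1-/- DCs. The gamma chain did not follow these chains. *Fcer1g*, which DCs, macrophages and other myeloid cells also express, had 594 FPKM in WT control, 699 in WT treated, 564 in GEF-H1-/- control and 560 in GEF-H1-/- treated DCs, and its intervals overlapped in all 4 pairwise comparisons, although its FPKM lay above its own interval in 3 of the groups.

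Of 16 genes of IgE receptor signalling, among them the gamma chain, 15 passed the filter. None of the 15 was past the limit in either genotype comparison or under the drug in either genotype. Their median genotype difference was 0.00 in control and 0.05 in treated cells. Between control genotypes, intervals were apart for 0 of the 15, beside 2.86% of all genes tested upwards and 1.88% downwards. Between treated genotypes they were apart for 1, beside 7.02% upwards and 6.73% downwards. That gene was *Fyn*, lower at 40.9 FPKM without GEF-H1 than at 64.6 FPKM with it (-0.65). With the drug in WT DCs, intervals were apart for 3 of the 15, beside 16.8% of all genes tested, all upwards, the adaptor *Gab2* (11.3 to 19.8 FPKM), the Rab5 exchange factor *Rabgef1* (12.8 to 22.0) and the Src family kinase *Fyn* (39.7 to 64.6).

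Among the proteases, *Prss34*, a tryptase-like serine protease of basophils (chr17:25298394-25300161, plus strand), had the highest value in every group. Its interval overlapped that of the next gene in both WT groups and was apart from it in both GEF-H1-/- groups. *Prss34* had 82.0 FPKM (62.9 to 100.5) in WT control, 83.8 (63.5 to 102) in WT treated, 171 (132 to 209) in GEF-H1-/- control and 163 (126 to 199.8) in GEF-H1-/- treated DCs. The GEF-H1-/- groups were 2.08-fold and 1.95-fold higher, with intervals apart in control and in treated cells, and the drug effect was 0.03 for WT DCs and -0.06 for GEF-H1-/- DCs. Of the 12 genes listed for the tryptase locus on the same chromosome, *Prss34* included, 10 stayed under 1 FPKM in every group and 4 were at 0 in all. The other gene that passed the filter, *Prss30*, had 0.452 FPKM in WT control and 0.0613 in GEF-H1-/- control DCs, a difference of -0.45 in log2(FPKM + 1) with intervals apart. It was low throughout and passed the filter through WT treated DCs alone, at 1.08 FPKM, so the filter favoured a higher WT value.

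*Cpa3*, the carboxypeptidase A3 of mast cell and basophil granules (chr3:20215616-20242181, minus strand), had 31.1 FPKM (23.8 to 38.3) in WT control, 29.7 (23.5 to 35.8) in WT treated, 54.9 (42.7 to 66.2) in GEF-H1-/- control and 53.0 (41.5 to 64.4) in GEF-H1-/- treated DCs. Its genotype difference was 1.77-fold in control and 1.79-fold in treated cells, with intervals apart in both. *Mcpt8*, a basophil granule protease (chr14:56082164-56085197, minus strand), had 63.5 FPKM (45.5 to 78.7), 71.3 (51.2 to 83.2), 97.0 (69.8 to 113) and 92.6 (67.0 to 108) in the same 4 groups. Its GEF-H1-/- values were 1.53-fold and 1.30-fold higher, but the group intervals overlapped in both cases. The difference was 0.60 (0.08 to 1.12) in control cells and 0.37 (-0.11 to 0.86) in treated cells, where its bounds included 0. The microRNA genes *Mir6949* and *Mir7007* lie on the same strand within the spans of *Mcpt8* and *Cpa3*, and fragments there may be counted to either.

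*Gzmb* went the other way. Granzyme B, a serine protease best known from cytotoxic lymphocytes and also made by other leukocytes (chr14:56258858-56262260, minus strand), had 50.2 FPKM (40.3 to 59.9) in WT control, 72.0 (58.3 to 85.6) in WT treated, 24.6 (19.6 to 29.5) in GEF-H1-/- control and 25.05 (20.1 to 29.97) in GEF-H1-/- treated DCs. The GEF-H1-/- levels were lower, with intervals apart, by 2.04-fold in control and 2.87-fold in treated cells. In log2(FPKM + 1) the control difference was -0.9996, just short of the limit, and the treated one -1.49. In WT DCs the drug group was 0.51 (0.12 to 0.90) higher, with overlapping intervals of the groups, and in GEF-H1-/- DCs 0.02 higher.

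*Mcpt8* and *Gzmb* belong to the same cluster of chymase and granzyme genes, with 174 kb between them. The table holds 17 genes from *Cma1* to *Gzmb*, of which 6 reached 1 FPKM. *Ctsg*, the cathepsin G gene next to *Mcpt8*, had 27.7 FPKM in WT control and 49.4 in GEF-H1-/- control DCs, a difference of 0.81 with intervals apart. *Gzmc*, a granzyme gene next to *Gzmb*, had 24.1 FPKM in WT control and 6.75 in GEF-H1-/- control DCs, a difference of -1.69 with intervals apart. The map of the cluster shows these neighbours beside *Mcpt8* and *Gzmb*, with most of the other genes near 0. Chymases and granzymes are similar in sequence, and how fragments that fit several of them were counted is not given in the sources used here.

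**Figure D2:**
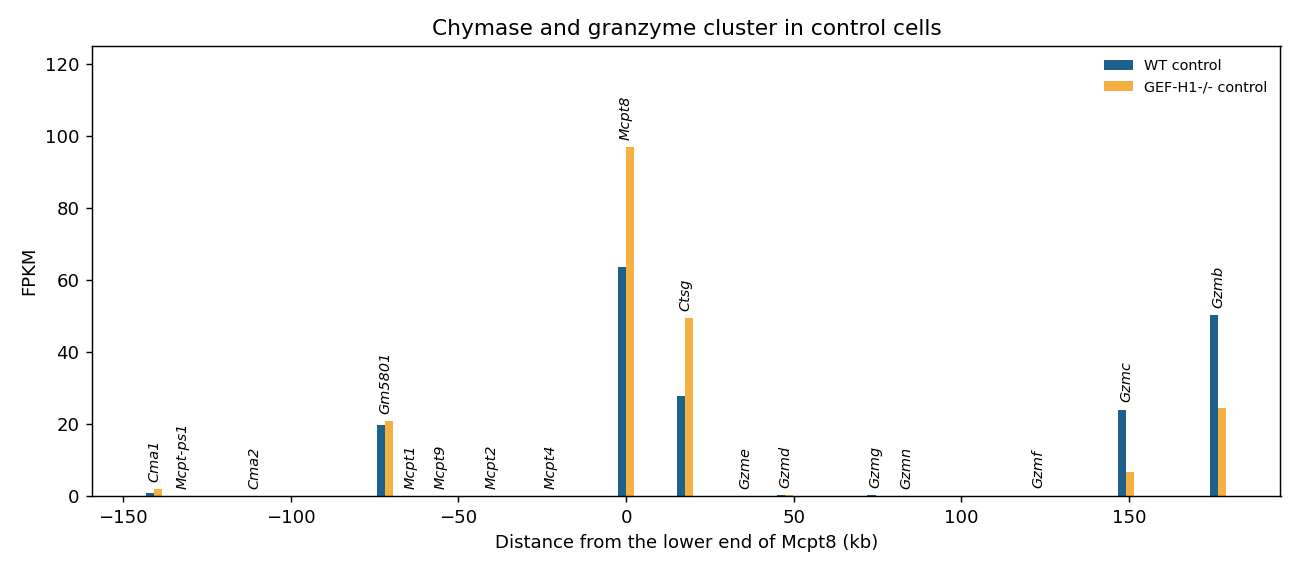
FPKM in control BMDCs for the 17 genes of the chymase and granzyme cluster, placed by their distance in kb from the lower end of *Mcpt8*, with blue bars for WT and orange bars for GEF-H1-/- DCs. Orange bars are taller at *Mcpt8* and *Ctsg*, blue bars at *Gzmc* and *Gzmb*, and the chymases *Mcpt1*, *Mcpt2* and *Mcpt4* are near 0.

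*Hdc* was the single gene of the 10 past the limit under ansamitocin-P3. The histidine decarboxylase gene (chr2:126593668-126618665, minus strand) had 8.70 FPKM (6.95 to 10.5) in WT control, 29.2 (23.7 to 34.7) in WT treated, 14.4 (11.7 to 17.2) in GEF-H1-/- control and 14.5 (11.7 to 17.3) in GEF-H1-/- treated DCs. It was 3.36-fold higher with the drug in WT DCs, 1.64 (1.27 to 2.01) in log2(FPKM + 1), while the effect in GEF-H1-/- DCs was 0.01 (-0.36 to 0.38). The difference between these drug effects was 1.63 (1.10 to 2.16). Compared between genotypes, *Hdc* was 1.66-fold higher in GEF-H1-/- control DCs and 2.01-fold lower in GEF-H1-/- treated DCs, with intervals apart each time.

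For the 10 genes together, the counts called under the drug lay near the shares of all genes tested. In WT DCs, 1 of the 10 was past the limit, against 4.94% of all genes tested, and intervals were apart for 1, against 16.8%. In GEF-H1-/- DCs, 0 were past the limit, against 1.08%, and intervals were apart for 0, against 3.7%. The difference of the drug effects was past the limit for 1 gene, *Hdc*, against 1.9% of all genes. Median effects of the 10 genes were 0.10 in WT and -0.05 in GEF-H1-/- DCs, beside 0.00 and -0.01 for all genes tested.

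**Figure D3:**
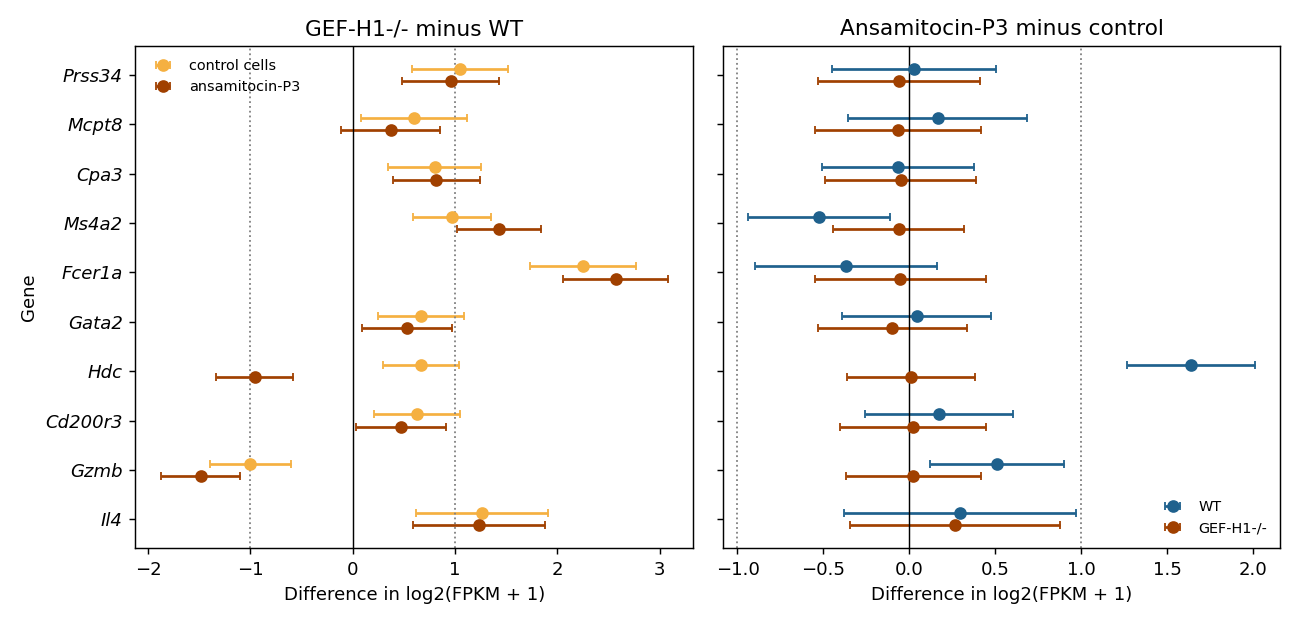
Differences in log2(FPKM + 1) of the 10 genes, with GEF-H1-/- minus WT on the left and ansamitocin-P3 minus control on the right. Points are differences of the group values, bars combine the 95% Cuffdiff intervals and dotted lines mark 1 and -1, and *Hdc* stands apart on the right at 1.64 in WT and 0.01 in GEF-H1-/- DCs.

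Histamine is stored in granules after uptake by the vesicular transporter VMAT2 and bound there to the proteoglycan serglycin. The gene of the transporter, *Slc18a2*, had 4.52 FPKM in WT control, 4.57 in WT treated, 10.7 in GEF-H1-/- control and 10.4 in GEF-H1-/- treated DCs, so that it differed between genotypes (1.08 and 1.04, intervals apart) and not past the limit with the drug. *Srgn*, the serglycin gene, had 407 FPKM in WT control, 1063 in WT treated, 704 in GEF-H1-/- control and 856 in GEF-H1-/- treated DCs, a drug effect of 1.38 in WT with intervals apart and of 0.28 in GEF-H1-/- DCs with overlapping ones. Of 8 genes of histamine synthesis, transport, receptors and breakdown, *Hdc* included, 5 passed the filter. Receptor gene *Hrh2* went from 3.79 to 1.58 FPKM with the drug in WT DCs (-0.89, intervals apart) and from 3.50 to 2.57 in GEF-H1-/- DCs (-0.33, overlapping). *Abp1*, the gene of the histamine-degrading diamine oxidase, went from 0.570 to 1.11 FPKM with the drug in WT DCs (0.43, overlapping). GEF-H1-/- DCs had 0.779 FPKM without and 2.31 with it (0.90, intervals apart). *Abp1* passed the filter through the treated groups alone, so its higher values there were favoured by the filter.

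*Il4* (chr11:53612461-53618665, minus strand) was the lowest of the 10 genes in all groups, and the culture medium itself contained IL-4 protein. It had 1.28 FPKM (0.580 to 2.03) in WT control, 1.80 (0.894 to 2.72) in WT treated, 4.49 (2.87 to 6.11) in GEF-H1-/- control and 5.59 (3.71 to 7.49) in GEF-H1-/- treated DCs. The intervals of the genotypes were apart, with 3.50-fold and 3.11-fold higher levels in GEF-H1-/- control and treated cells. *Il13*, a neighbouring type 2 cytokine gene, had 0.314 FPKM in WT control and 1.09 in GEF-H1-/- control DCs, with intervals apart, and 0.531 and 0.856 in the treated groups, with overlapping ones. It was low throughout and passed the filter through GEF-H1-/- control DCs alone, so its higher value there was favoured by the filter. In the list of 8 cytokine genes that holds both, 5 passed the filter. *Il6*, a cytokine that many cells make, was the member of that list past the limit under the drug, with 2.67 in WT and 1.59 in GEF-H1-/- DCs.

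*Gata2* (chr6:88198664-88207032, plus strand) had 7.07 FPKM (5.46 to 8.66) in WT control, 7.32 (5.46 to 9.08) in WT treated, 11.9 (9.17 to 14.5) in GEF-H1-/- control and 11.01 (8.46 to 13.4) in GEF-H1-/- treated DCs. The intervals were apart in control cells, at a 1.67-fold difference, and overlapped in treated cells, at 1.504-fold. In log2(FPKM + 1) the treated difference was 0.53 (0.09 to 0.97). Of 14 transcription factor genes of these and neighbouring lineages, *Gata2* included, all passed the filter and 0 were past the limit between genotypes in control or treated cells. *Gata1*, the factor of erythroid cells, megakaryocytes, eosinophils and mast cells, had 2.23 FPKM in WT control and 3.60 in GEF-H1-/- control DCs, with overlapping intervals. *Irf8*, a factor of DC and monocyte development, was the gene of that list past the limit with the drug, with 2.31 in WT and 2.01 in GEF-H1-/- DCs.

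*Cd200r3*, a receptor of the CD200 receptor family on basophils and mast cells (chr16:44943678-44981380, plus strand), had 6.64 FPKM (5.09 to 8.18) in WT control, 7.62 (5.77 to 9.47) in WT treated, 10.8 (8.37 to 13.2) in GEF-H1-/- control and 10.95 (8.46 to 13.4) in GEF-H1-/- treated DCs. It differed 1.62-fold between genotypes in control cells, with intervals apart. In treated cells the group intervals overlapped, at a difference of 0.47 (0.03 to 0.91) in log2(FPKM + 1). The family members *Cd200r1* (58.8 to 69.4 FPKM over the groups) and *Cd200r4* (22.0 to 28.9 FPKM) had overlapping intervals in both genotype comparisons. *Cd200*, the gene that gives the family its name, was higher with the drug in both genotypes. It had 13.0 and 49.2 FPKM in WT control and treated DCs and 11.04 and 38.6 in GEF-H1-/- control and treated DCs. In the MS4A family, to which *Ms4a2* belongs, 10 of 14 genes found passed the filter. Besides *Ms4a2*, *Ms4a8a* was higher in GEF-H1-/- control DCs (0.766 and 2.57 FPKM, 1.01 in log2(FPKM + 1)) and *Ms4a4c* lower (19.7 and 10.2 FPKM, -0.89), while *Ms4a6c* was lower with the drug in WT DCs (13.9 and 7.85 FPKM, -0.75), with intervals apart in these 3 cases.

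The other genes known from these cells were read from a list of 29, of which 19 passed the filter. In control cells 1 was past the limit, *Slc18a2*, and intervals were apart upwards for 5, beside 2.86% of all genes tested, and downwards for 1, beside 1.88%. In treated cells *Slc18a2* was past the limit upwards and *Osm* downwards (-2.10), and intervals were apart upwards for 2, beside 7.02% of all genes, and downwards for 3, beside 6.73%. Their median genotype difference was 0.38 in control and 0.16 in treated cells. *Slc6a4*, the serotonin transporter gene, had 1.88 FPKM in WT control and 3.30 in GEF-H1-/- control DCs (0.58, intervals apart). *Hpgds* was lower, with 0.9997 and 0.402 FPKM in these groups (-0.51) and 1.07 and 0.474 in the treated ones (-0.49), intervals apart in both. It passed the filter through WT treated DCs alone, so the filter favoured a higher WT value. *Osm*, the gene of the cytokine oncostatin M, showed a drug effect of 3.61 (WT) and 1.60 (GEF-H1-/-). Genes that define tissue mast cells were low. Of 8 such genes, 6 stayed under 1 FPKM in every group, *Tpsab1* and *Mrgprb2* were at 0 in all groups, and the 8 summed to between 2.97 and 5.23 FPKM. *Kit* had 2.12 FPKM in WT control and 3.04 in GEF-H1-/- control DCs. The mast cell chymase gene *Cma1* had 0.911 and 1.91 FPKM, with overlapping intervals for both genes. *Cma1* passed the filter through the GEF-H1-/- groups alone, so its higher values there were favoured by the filter.

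**Figure D4:**
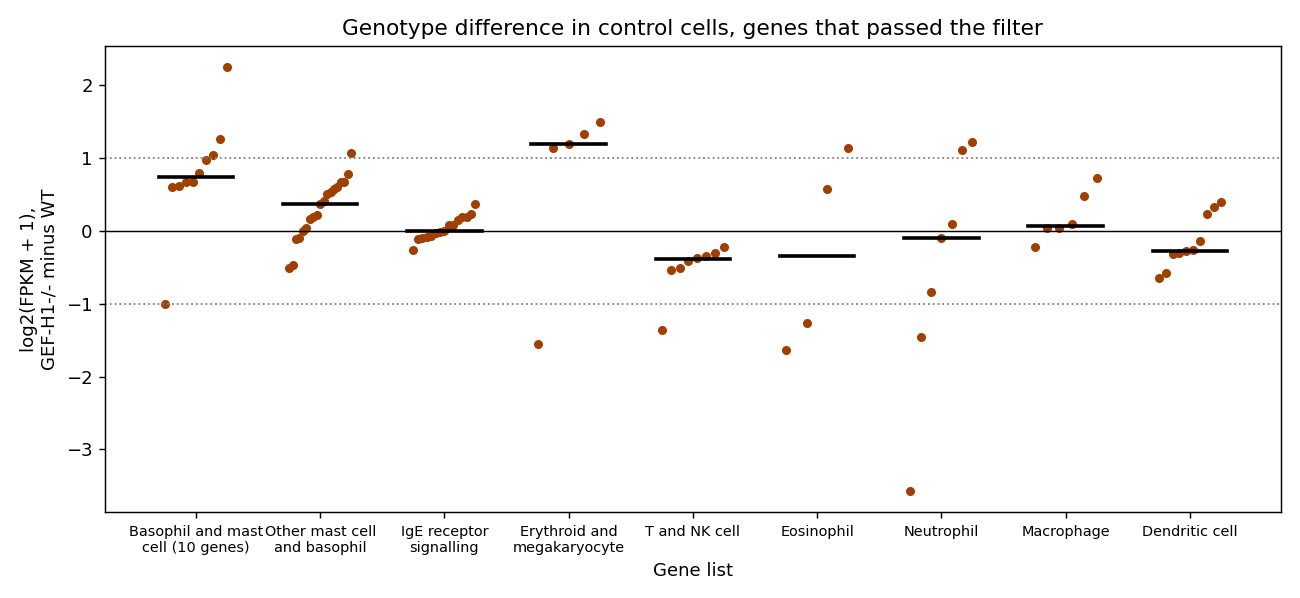
Differences between GEF-H1-/- and WT control BMDCs in log2(FPKM + 1) for the genes of 9 lists that passed the filter, with a point per gene, black lines for medians and dotted lines at 1 and -1. The 10 basophil and mast cell genes have a median of 0.74 and the other mast cell and basophil genes of 0.38. IgE receptor signalling genes have a median of 0.00 and T and NK cell genes of -0.39. The median of the erythroid and megakaryocyte genes was 1.202, above that of the 10 genes.

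Genes of other marrow cells differed between the genotypes too, and their part in the values above was not tested. In the erythroid and megakaryocyte list 5 of 8 genes passed the filter, and the summed level of the list was 58.5 FPKM in WT control and 145 in GEF-H1-/- control DCs. *Pf4*, platelet factor 4, had 24.5 and 70.9 FPKM in these groups, *Ppbp*, a platelet chemokine gene, 18.0 and 47.1 FPKM and *Itga2b*, the platelet integrin alpha chain, 7.91 and 19.5 FPKM, while *Hbb-b1*, a beta globin gene, had 5.82 and 1.32 FPKM. All 4 had intervals apart. Between control cells the 3 megakaryocyte genes therefore ran the same way as *Fcer1a* and *Prss34*, and the globin gene ran with *Gzmb*. The list summed to 100 FPKM in WT treated and 159 in GEF-H1-/- treated DCs. *Ppbp* rose with the drug in WT DCs to 46.0 FPKM, with intervals apart, unlike *Fcer1a* and *Prss34*. Between treated genotypes its intervals overlapped, while those of *Pf4* and *Itga2b* stayed apart. Past the limit upwards were 4 genes of the list between control cells and 1 between treated cells. The median genotype difference of the list was 1.202 in control and 0.873 in treated cells. Both lay above the medians of the 10 genes, 0.74 and 0.67.

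Of 12 T and NK cell genes, 8 passed the filter, and all 8 had lower values in GEF-H1-/- than in WT DCs, as *Gzmb* did. The list summed to 130 FPKM in WT control, 147 in WT treated, 67.2 in GEF-H1-/- control and 62.2 in GEF-H1-/- treated DCs. *Gzma*, granzyme A, made up most of it, with 84.4 FPKM in WT control and 32.4 in GEF-H1-/- control DCs, intervals apart. *Cd8a* had 6.82 and 4.41 FPKM, also apart, and *Cd3e*, a chain of the T cell receptor complex, 3.41 and 2.47 FPKM, overlapping. The genes with the pattern over the 4 groups nearest to *Gzmb*, by the distance between centred log2(FPKM + 1) values among 2265 candidates, were *G0s2*, *Stfa2l1*, *Htr7*, *Ifitm3* and *Car2*, at distances of 0.046 to 0.232.

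Eosinophil granule genes also ran against most of the 10 genes. *Prg2*, the major basic protein gene, had 984 FPKM in WT control and 411 in GEF-H1-/- control DCs, and *Epx*, eosinophil peroxidase, 118 and 37.4 FPKM, both with intervals apart. *Ccr3*, the eotaxin receptor gene, which basophils express as well, ran the other way with 0.753 and 2.86 FPKM, and so did *Siglec5*, the table's symbol for Siglec-F, with 15.8 and 24.1 FPKM. In all, 4 of 5 genes of the eosinophil list passed the filter, and it summed to 1120 FPKM in WT control and 476 in GEF-H1-/- control DCs. Neutrophil genes split likewise, with *Camp* (189 and 15.0 FPKM) and *Ltf* (399 and 145 FPKM), of secondary granules, lower and *Mpo* (26.4 and 63.1 FPKM), of primary granules, higher in GEF-H1-/- control DCs. All 7 neutrophil genes found passed the filter, and they summed to 30837 FPKM in WT control and 21260 in GEF-H1-/- control DCs. Most of these sums was *S100a8* (19401 and 10856 FPKM), whose FPKM lay above its own interval in every group, and *S100a9* (10678 and 10004 FPKM).

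All 10 DC genes listed passed the filter, and 0 were past the limit between genotypes in control or treated cells. Of all genes tested, 1.26% were past it upwards and 0.614% downwards in control cells, and 2% and 2.06% in treated cells. Intervals were apart for 0 of the 10 between control genotypes, beside 2.86% of all genes tested upwards and 1.88% downwards. Between treated genotypes they were apart upwards for 1, beside 7.02%, and downwards for 0, beside 6.73%. The median genotype difference of the 10 DC genes was -0.27 in control and -0.25 in treated cells. In GEF-H1-/- DCs 7 of them had lower values in control cells and 6 in treated cells. *Itgax* (CD11c) had 102 to 175 FPKM over the groups and the MHC class II gene *H2-Aa* 753 to 987 FPKM. These values cannot show what share of the culture was DCs, so the DC label was not tested. *Ccr7*, the chemokine receptor of migrating DCs, was past the limit with the drug in WT DCs, at 1.22. Of 6 macrophage genes 0 were past the limit between genotypes, and *Mertk* was past it with the drug in WT DCs, at -1.86. Of these 6, 5 had a higher value in GEF-H1-/- than in WT control DCs, and 6 in treated DCs. Their median genotype differences were 0.07 and 0.46. Among plasmacytoid DC genes 3 of 5 passed the filter, and *Ly6d* was lower in GEF-H1-/- control DCs (2.22 and 0.547 FPKM, -1.06). The targeted gene *Arhgef2* had 42.3 FPKM in WT control, 45.9 in WT treated, 4.59 in GEF-H1-/- control and 4.16 in GEF-H1-/- treated DCs, so that both groups labelled as knockout were the low ones.

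Most of the 10 genes were higher in both GEF-H1-/- groups than in both WT groups, while *Hdc* and *Gzmb* were not. The distance used below grows with the size of a difference as well as with its shape. Measured by the same distance over the 4 groups, *Mcpt8* and *Cd200r3* were the nearest pair at 0.087, followed by *Gata2* and *Cd200r3* at 0.136 and *Mcpt8* and *Gata2* at 0.143. *Fcer1a* and *Gzmb* were the farthest apart at 3.71, and *Fcer1a* and *Hdc* followed at 2.92. Over all 7483 candidate genes the nearest to *Mcpt8* were *Nlrp12*, *Gata1*, *Gucy1b3*, *Npdc1* and *Serpine2*, at 0.057 to 0.079. For *Hdc* the nearest of 1908 candidates were *Hid1*, *Il1r2*, the gene of a decoy receptor for IL-1, *Mmp19*, a matrix metalloproteinase gene, *Grina* and *Tmem198b*, at 0.249 to 0.293. With 4 groups per gene many genes can lie close together, and these distances are a description.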

How the data were processed

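Strand-specific libraries of polyadenylated RNA were sequenced as paired ends. Per the labels and methods, the authors computed FPKM with Cuffdiff (version 1.05 in the submitters' processing notes) and deposited 1 FPKM per gene and group with its 95% interval and a status. The build is mm10; the aligner and annotation behind this table are not given in the sources used here. Columns were matched to groups by name; WT columns name no genotype and were assigned by elimination. No column of single libraries was left unused (0). The methods give a target depth, but the depth reached is unknown, since FPKM keeps no fragment counts.

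The 107 genes without an OK status and genes under 1 FPKM in every group were left out. Differences were taken in log2(FPKM + 1) with Python 3.11.15. The code was run on simulated data, where 200 of 200 changed genes were recovered. Its sensitivity to small differences was not tested. Intervals of differences join half-widths in quadrature. No test was possible. Named were all 10 genes and, from other lists, at most 4 genes past a limit with the largest differences. Also named were the 3 highest of each other cell type, where the text turns on them, and the 5 nearest genes of *Mcpt8*, *Hdc* and *Gzmb*. *Fcer1g*, *Kit*, *Cma1*, *Cd3e*, *Itgax*, *Cd200r1*, *Cd200r4* and *Hpgds* were added after their values were seen. The 10 genes and the lists were chosen with earlier results of these data known. Gene spans are those of the deposited table, strands and overlaps from GENCODE and promoters from RefSeq, both on GRCm38. Symbols absent from the table were matched through RefSeq synonyms.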

Additional observations from a re-analysis of the deposited data

Results flagged for a closer look

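*Hdc* differed between genotypes in opposite directions in control and treated cells. The difference GEF-H1-/- minus WT in log2(FPKM + 1) was 0.67 in control and -0.96 in treated DCs, with Cuffdiff intervals apart in both, so that the genotype differences lay 1.63 apart. This difference was not tested, since each group has 1 pooled value.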

How the results depend on the processing

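No paired analysis was possible because the table holds 1 pooled value per group, and for the same reason no replicate could be left out. The 7 alternatives were pseudocounts of 0.1 and 5 FPKM, no filter, a filter of 5 FPKM, rescaled groups, genes of any status and, for counts alone, a limit of 0.5. Over the other 6, 319 of 330 differences of the 10 genes and their medians stayed within their spread and 11 moved more. The filter and status settings cannot change the value of a gene that passes, so sameness under them was fixed in advance. Rescaling changed little, with factors of 0.993 to 1.001. All 11 that moved did so under the changed pseudocounts, the settings that could move a value by more. No difference past the limit changed sign, and 1 that was not past it did, the difference of drug effects of *Il4* (0.03 as reported and -0.04 with a pseudocount of 5). The counts of genes past the limit were 563 with the drug in WT, 123 with the drug in GEF-H1-/-, 214 between control cells, 463 between treated cells and 216 for the difference of drug effects. In that order they became 2671, 660, 818, 2205 and 1364 at a limit of 0.5, 956, 212, 372, 801 and 387 with a pseudocount of 0.1, and 318, 77, 101, 206 and 123 with a pseudocount of 5. Of the 10 genes, those past a limit of 0.5 numbered 3 with the drug in WT, 10 between control cells and 8 between treated cells. A pseudocount of 0.1 put 5 past the limit between control cells, and a pseudocount of 5 left 2 between control and 2 between treated cells. *Il4*, the lowest gene, went from 1.26 between control cells to 1.73 and 0.59 under these pseudocounts. The intervals come from pooled duplicates and may not hold the spread between mice. For 165 of 11397 genes, and 0 of the 10, the FPKM lay outside its own interval in a group.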
